A study of Mus musculus with 31 samples.

Results

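The genes described here are 10 components of the circadian clock, namely Per1, Per2, Per3, Dbp, Nr1d1, Nr1d2, Arntl, Clock, Cry1 and Tef, measured in whole mouse retina. Every probe whose annotated symbol was one of these genes was taken, which gave 18 of the 25697 probes on the array. Of these, 15 probes of 9 genes passed the filter on dim probes (deposited detection p under 0.05 on at least 6 arrays), and all 15 were detected on all 31 arrays. The other 3 probes were not above background. The Cry1 probe was detected on 0 arrays and is the gene's sole probe, so Cry1, one of the main repressors of the clock, has no level here. A further Clock probe was detected on 0 arrays and a further Per2 probe on 2 arrays.

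The circadian clock is a feedback loop of transcription. CLOCK and ARNTL (also called BMAL1) form a heterodimer that binds E-boxes and activates the Per and Cry genes, whose proteins then inhibit that heterodimer, while the nuclear receptors NR1D1 and NR1D2 (REV-ERB alpha and beta) repress Arntl through RORE sites. DBP and TEF are PAR bZIP activators that act at D-boxes and carry the rhythm to output genes. The mouse retina holds its own clock, which runs in several of its neuron classes, is set by light and dopamine and shapes photoreceptor function, so the levels of these transcripts depend on the time of day at which a retina is taken.

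The arrays came from a study of a pair of mouse models of type 1 diabetes on the C57BL/6J background, with retinas taken after 3 months of hyperglycaemia. There were 9 arrays of Ins2Akita retina (genotype Ins2Akita/Ins2, a dominant mutation of 1 insulin allele that leads to loss of beta cells), 6 of STZ retina (given streptozotocin, a toxin of beta cells), 8 of Control retina (untreated, set against STZ) and 8 of WT retina (genotype Ins2/Ins2, set against Ins2Akita). The labels give neither the age of the mice nor the time of day or light conditions of sampling, and these cannot be told apart from the groups. Since no label states that each array is a mouse of its own, the p-values reflect the spread among arrays alone, which could be technical.

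Between 15395 and 16460 probes per array were detected in Ins2Akita retina, 15074 to 15816 in STZ retina, 15226 to 15650 in Control retina and 14581 to 15469 in WT retina. Rod markers averaged 13.61 to 14.37 on the log2 scale and were detected on 31 arrays, as were the cone, inner neuron and Muller glia markers. The score of 7 lens markers (mean log2 deviation from the average array) varied by array in every group, from -4.63 to 4.03 in Ins2Akita, -0.25 to 4.30 in STZ, -4.34 to 4.33 in Control and -4.44 to 3.74 in WT. Each group was hybridised on a BeadChip of its own except for array Ins2Akita9, which shared a BeadChip with the STZ arrays, so BeadChip and group cannot be told apart.

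The start-site windows of the members whose level differed between groups are given first, because they hold, or lack, the elements through which the loop is known to act. Of the 10 genes, 9 matched the RefSeq table of promoter windows (build GRCm38.p6, 250 bases before to 50 after each annotated start), with 14 windows in all, and Per2 was not among them. Capitals mark a D-box (TTATGTAA, TTATGCAA, TTACGTAA or TTACATAA) or an E-box (CACGTG), searched on both strands. The Per3 window is chr4:151044616-151044915 on the minus strand, the Tef windows are chr15:81802423-81802722 and chr15:81811164-81811463 on the plus strand, and the Dbp window is chr7:45704997-45705296 on the plus strand.
Per3: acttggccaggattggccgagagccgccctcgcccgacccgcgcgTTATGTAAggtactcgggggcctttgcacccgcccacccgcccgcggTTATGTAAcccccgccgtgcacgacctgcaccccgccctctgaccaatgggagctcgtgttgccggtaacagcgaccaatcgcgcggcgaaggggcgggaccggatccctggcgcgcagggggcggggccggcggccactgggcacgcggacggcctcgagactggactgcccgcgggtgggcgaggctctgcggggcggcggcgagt
Tef upstream start: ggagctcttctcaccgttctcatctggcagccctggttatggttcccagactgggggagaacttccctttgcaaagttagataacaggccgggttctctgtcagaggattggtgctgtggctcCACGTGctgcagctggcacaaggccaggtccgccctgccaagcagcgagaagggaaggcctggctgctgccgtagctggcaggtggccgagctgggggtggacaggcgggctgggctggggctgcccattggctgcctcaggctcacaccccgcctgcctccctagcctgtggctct
Tef downstream start: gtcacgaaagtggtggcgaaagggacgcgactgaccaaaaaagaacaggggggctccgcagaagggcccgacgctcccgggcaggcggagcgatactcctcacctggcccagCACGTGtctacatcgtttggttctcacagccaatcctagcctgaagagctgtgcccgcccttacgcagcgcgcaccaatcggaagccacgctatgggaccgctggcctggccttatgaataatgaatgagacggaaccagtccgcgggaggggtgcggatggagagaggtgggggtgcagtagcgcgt
Dbp: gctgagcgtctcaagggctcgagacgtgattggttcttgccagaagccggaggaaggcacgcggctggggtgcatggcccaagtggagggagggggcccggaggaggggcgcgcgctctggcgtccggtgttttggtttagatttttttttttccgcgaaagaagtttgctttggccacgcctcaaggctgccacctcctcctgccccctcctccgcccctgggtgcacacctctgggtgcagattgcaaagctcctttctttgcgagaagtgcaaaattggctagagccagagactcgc

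The Per3 window held 2 D-boxes, at -205 and -158 from the annotated start. A D-box was found in 1.778% of 32851 mouse windows of the same length. Each Tef window held 1 E-box, at -127 for the upstream start and -138 for the downstream one, against 7.15% of all windows. The Dbp window held none of the words searched. Among the other members, a window of Per1 (chr11:69098699-69098998, plus strand) held an E-box at -166 and a D-box at -24, and the Cry1 window held an E-box at -60. A RORE (TAGGTCA or TGGGTCA, present in 6.453% of windows) was found in 1 Arntl window, at 30 bases after the start. The variant E-box CACGTT, present in 4.685% of windows, was found for Nr1d1 and Cry1, and a CRE (TGACGTCA) in 0 of the 14 windows. These are matches of letters in a short window and say nothing of binding.

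Which clock transcripts differ in Ins2Akita retina from WT, in STZ retina from Control, and between the non-diabetic groups was then asked in one limma model over all arrays, with p-values adjusted over the 16743 probes kept. Per3 and Per2 were higher and Dbp lower in Control than in WT retina, and Per3 had the largest of the differences called. With diabetes, 1 Tef probe was lower in Ins2Akita than in WT retina, and 0 clock probes passed in STZ against Control. In whole-tissue RNA, fewer cells of a type and less RNA per cell cannot be told apart.

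For Ins2Akita against WT, 1 of 15 probes passed an adjusted p under 0.05, a share of 6.67% where 4.16% of all probes passed, and 4 of 15 had an unadjusted p under 0.05 (19.2% of all probes). For STZ against Control, 0 of 15 passed where 0.0358% of all probes did, and 1 of 15 had an unadjusted p under 0.05 (8.55% of all probes). For Control against WT, 4 of 15 passed, a share of 26.7% against 22.2% of all probes, and 5 of 15 had an unadjusted p under 0.05 (34.4% of all probes). The share called among clock probes was thus near that of all probes in each comparison. The median change over the 15 probes was 0.07 for Ins2Akita minus WT, 0.01 for STZ minus Control and -0.01 for Control minus WT on the log2 scale, beside -0.000922, -0.01 and 0.00194 over all probes. The Ins2Akita comparison and Control against WT share the WT arrays, and STZ against Control and Control against WT share the Control arrays, so these are not separate pieces of evidence.

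**Figure D1:**
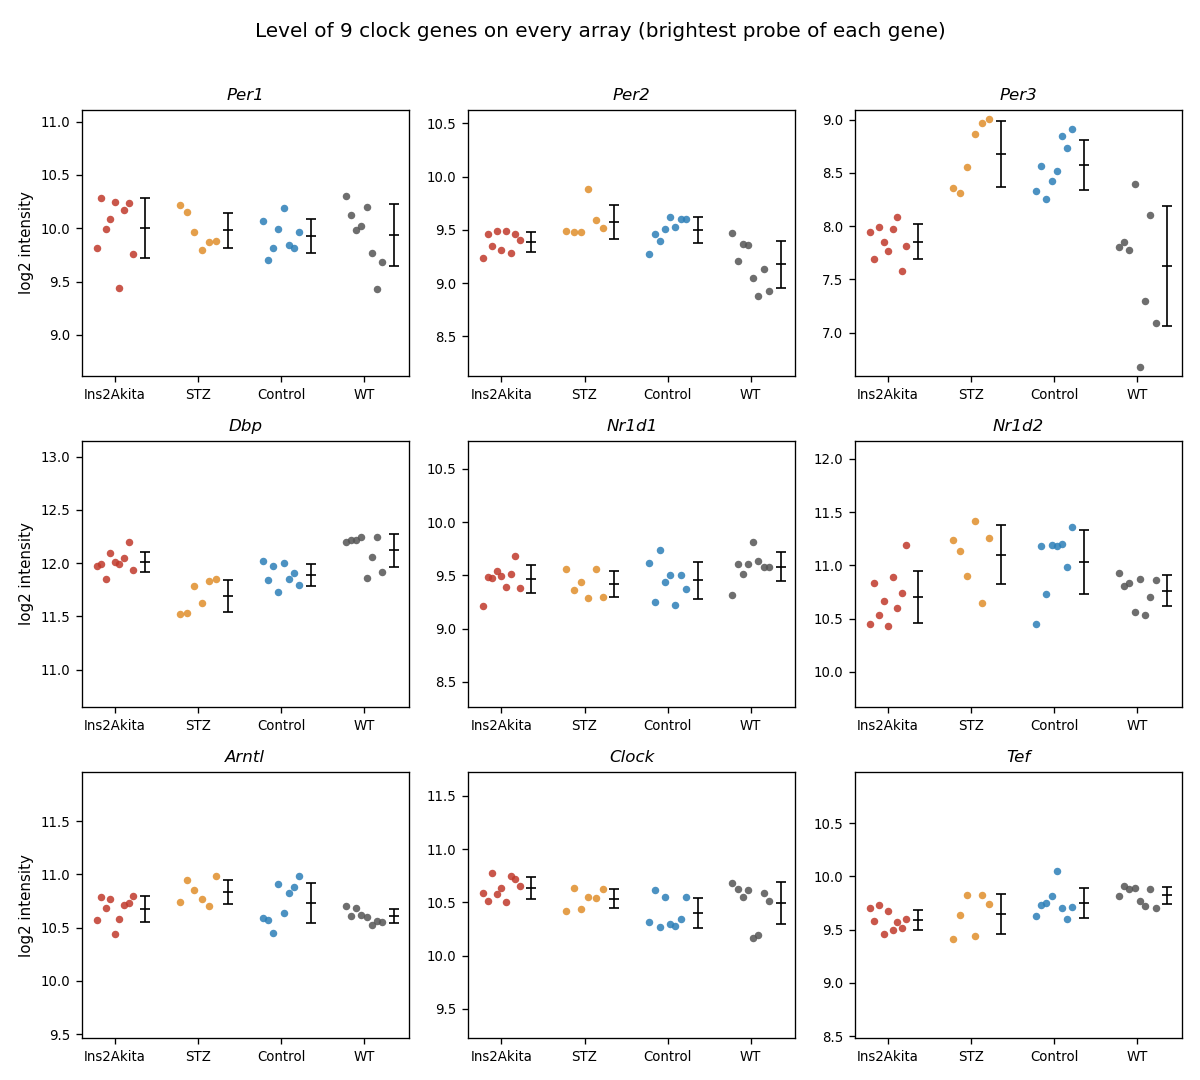
Level of 9 clock genes on each array (log2 intensity, brightest probe of a gene, 1 point an array, all panels spanning the same number of log2 units), by group. The black bar is the mean with its SD. Per3 lies higher in STZ (8.31 to 9.01) and Control (8.26 to 8.91) than in Ins2Akita (7.58 to 8.08), which was not tested, and WT is widely spread (6.68 to 8.40).

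Of the activators of the loop, Clock encodes the basic helix-loop-helix partner of ARNTL. On its brighter probe (ILMN_2610973) the lowest, median and highest levels, as log2 intensity, were 10.51, 10.63 and 10.78 in Ins2Akita, 10.42, 10.54 and 10.63 in STZ, 10.27, 10.33 and 10.62 in Control, and 10.17, 10.57 and 10.68 in WT. All 4 groups overlapped, with a pair of WT arrays and several Control arrays low. The log2 change was 0.14 ± 0.071 (SE) for Ins2Akita minus WT (limma adjusted p = 0.269), 0.13 ± 0.079 for STZ minus Control (adjusted p = 0.681) and -0.09 ± 0.073 for Control minus WT (adjusted p = 0.407). The dimmer Clock probe (ILMN_2600964) ranged from 6.82 to 7.49 in Ins2Akita, 6.30 to 6.98 in STZ, 6.31 to 6.95 in Control and 6.40 to 7.45 in WT. It stood above the WT median on 8 of 9 Ins2Akita arrays and below it on 8 of 8 Control arrays. Its changes were 0.31 ± 0.13 for Ins2Akita minus WT (adjusted p = 0.166) and -0.21 ± 0.13 for Control minus WT (adjusted p = 0.255), neither of which passed.

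Arntl, which encodes the partner of CLOCK and is the target of the REV-ERB receptors, kept to a narrow range. Its levels were 10.44, 10.71 and 10.80 (lowest, median, highest) in Ins2Akita, 10.71, 10.81 and 10.98 in STZ, 10.45, 10.73 and 10.98 in Control, and 10.53, 10.61 and 10.71 in WT. The STZ arrays lay at the upper end and the groups overlapped. The changes of 0.07 ± 0.067 (Ins2Akita minus WT, adjusted p = 0.616), 0.10 ± 0.075 (STZ minus Control, adjusted p = 0.768) and 0.12 ± 0.069 (Control minus WT, adjusted p = 0.212) did not pass. The 95% intervals of the diabetes changes were -0.07 to 0.21 for Ins2Akita minus WT and -0.05 to 0.26 for STZ minus Control.

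Among the repressors, Per3, a period protein that is less needed for rhythm than PER1 and PER2, differed by more than any other clock gene. Its single probe (ILMN_1257393) had lowest, median and highest levels of 7.58, 7.85 and 8.08 in Ins2Akita, 8.31, 8.71 and 9.01 in STZ, 8.26, 8.54 and 8.91 in Control, and 6.68, 7.79 and 8.40 in WT. The Control arrays stood above the highest WT array in 6 of 8 cases and above the WT median in 8 of 8. These groups overlapped only through the top WT array, WT4. The lowest WT arrays were WT5 (6.68), WT8 (7.09) and WT6 (7.30), and WT6 and WT5 had the fewest probes detected of the 31 arrays. The part of this in the difference of Per3 between Control and WT was not tested. Per3 rose by 0.95 ± 0.17 (SE) on the log2 scale in Control relative to WT, a 1.93-fold difference with a 95% interval of 0.61 to 1.29 (limma adjusted p = 0.000124). A change of this size or more was seen in 0.675% of all probes in that comparison. With diabetes it changed little by comparison: 0.23 ± 0.16 in Ins2Akita minus WT (adjusted p = 0.459) and 0.10 ± 0.18 in STZ minus Control (adjusted p = 0.931). In order of mean level the groups ran STZ (8.68 ± 0.31, SD, n = 6), Control (8.58 ± 0.24, n = 8), Ins2Akita (7.86 ± 0.16, n = 9) and WT (7.63 ± 0.56, n = 8). The first pair and the last pair of this order did not differ beyond their spread. Every STZ and Control array lay above every Ins2Akita array, but neither group was tested against Ins2Akita. How many of all probes separate these groups as fully was not counted, so this separation is not shown to be particular to Per3.

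Per2, a core repressor whose transcript also responds to light and glucocorticoids, was measured by a pair of probes. On the brighter one (ILMN_2987862) the levels were 9.24, 9.40 and 9.49 (lowest, median, highest) in Ins2Akita, 9.48, 9.50 and 9.88 in STZ, 9.27, 9.51 and 9.62 in Control, and 8.88, 9.17 and 9.47 in WT. WT was the lowest group: 8 of 8 Control arrays and 9 of 9 Ins2Akita arrays lay above its median, and 5 of 8 Control arrays lay above its highest array. Per2 rose by 0.32 ± 0.078 in Control relative to WT, a 1.25-fold difference (limma adjusted p = 0.00345). In Ins2Akita minus WT the change was 0.21 ± 0.076, with a 95% interval of 0.06 to 0.37, which did not pass (adjusted p = 0.106), and in STZ minus Control it was 0.08 ± 0.085 (adjusted p = 0.873). The dimmer probe (ILMN_2987863) spanned 8.96 to 9.35 in Ins2Akita, 9.10 to 9.61 in STZ, 8.89 to 9.54 in Control and 8.55 to 9.36 in WT. It too was higher in Control than in WT, by 0.27 ± 0.095 (adjusted p = 0.0435), and it gave 0.20 ± 0.093 in Ins2Akita minus WT (adjusted p = 0.218). The call on the dimmer probe was lost with any one of 11 arrays left out, among them WT6 (0.20, adjusted p = 0.113), whereas the call on the brighter probe held with each array left out (0.28 to 0.36, adjusted p at most 0.0099).

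Per1, the period gene induced fastest by light, showed no difference past the threshold on either probe. Its brighter probe (ILMN_2813484) had levels of 9.44, 10.08 and 10.28 (lowest, median, highest) in Ins2Akita, 9.79, 9.92 and 10.22 in STZ, 9.70, 9.91 and 10.19 in Control, and 9.43, 9.999 and 10.30 in WT. Ins2Akita and WT each held a single low array and otherwise covered much the same range. The changes were 0.07 ± 0.11 in Ins2Akita minus WT (adjusted p = 0.799), 0.06 ± 0.13 in STZ minus Control (adjusted p = 0.949) and -0.01 ± 0.12 in Control minus WT (adjusted p = 0.953). On the dimmer probe (ILMN_2813487) the changes lay between 0.00321 and 0.13, with adjusted p of 0.515 or more.

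The REV-ERB genes form the second loop and are themselves E-box targets. Nr1d1 on its brighter probe (ILMN_1229091) had levels of 9.21, 9.49 and 9.68 (lowest, median, highest) in Ins2Akita, 9.29, 9.40 and 9.56 in STZ, 9.22, 9.47 and 9.74 in Control, and 9.32, 9.59 and 9.82 in WT. The groups overlapped almost wholly, although 8 of 9 Ins2Akita arrays were below the WT median. The changes were -0.12 ± 0.072 in Ins2Akita minus WT (adjusted p = 0.391), -0.04 ± 0.080 in STZ minus Control (adjusted p = 0.946) and -0.13 ± 0.074 in Control minus WT (adjusted p = 0.234). The dimmer Nr1d1 probe (ILMN_2749669) gave changes from -0.13 to -0.00748, and 0 of them passed.

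Nr1d2 had a wide spread within groups. Its brighter probe (ILMN_2798993) had levels of 10.43, 10.66 and 11.19 (lowest, median, highest) in Ins2Akita, 10.65, 11.19 and 11.41 in STZ, 10.45, 11.18 and 11.36 in Control, and 10.54, 10.82 and 10.93 in WT. In 6 of 8 cases a Control array lay above the highest WT array, but Control1 lay below the lowest, and Ins2Akita9, the array on the STZ BeadChip, was the highest of its group. The change was 0.27 ± 0.12 in Control minus WT (adjusted p = 0.102) and passed when Control1 was left out (0.36, adjusted p = 0.0204). It was -0.06 ± 0.12 in Ins2Akita minus WT (adjusted p = 0.828) and 0.06 ± 0.13 in STZ minus Control (adjusted p = 0.939). The dimmer probe (ILMN_2602387) gave 0.26 ± 0.17 in Control minus WT (adjusted p = 0.283).

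Of the D-box activators, Dbp is among the strongest rhythmic outputs of the clock in most tissues. Its probe (ILMN_2616226) had levels of 11.86, 11.99 and 12.20 (lowest, median, highest) in Ins2Akita, 11.52, 11.70 and 11.86 in STZ, 11.73, 11.88 and 12.02 in Control, and 11.86, 12.21 and 12.25 in WT. The diabetic group had the lower median of each pair: 9 of 9 Ins2Akita arrays lay below the WT median and 6 of 6 STZ arrays below the Control median, 3 of them below the lowest Control array. Dbp fell by 0.23 ± 0.067 on the log2 scale in Control relative to WT, to 0.853 of the WT level (limma adjusted p = 0.014), with 8 of 8 Control arrays below the WT median. It was -0.20 ± 0.073 in STZ minus Control, with a 95% interval of -0.35 to -0.05, and did not pass over all probes (unadjusted p = 0.0103, limma adjusted p = 0.383). In Ins2Akita minus WT the change was -0.11 ± 0.066 (adjusted p = 0.383). From the lowest mean level the groups ran STZ (11.69 ± 0.15, SD, n = 6), Control (11.89 ± 0.10, n = 8), Ins2Akita (12.01 ± 0.098, n = 9) and WT (12.12 ± 0.15, n = 8). Of these neighbours STZ and Control, and Ins2Akita and WT, did not differ past the threshold, and Control against Ins2Akita was not tested.

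Tef, which encodes thyrotroph embryonic factor, passed in a diabetes comparison on 1 of its 2 probes, in Ins2Akita against WT. On the brighter probe (ILMN_2676052) the levels were 9.46, 9.58 and 9.73 (lowest, median, highest) in Ins2Akita, 9.41, 9.69 and 9.83 in STZ, 9.60, 9.72 and 10.05 in Control, and 9.70, 9.85 and 9.91 in WT. Of the Ins2Akita arrays 7 of 9 lay below the lowest WT array and 9 of 9 below the WT median, with a narrow overlap. Tef fell by 0.23 ± 0.065 on the log2 scale in Ins2Akita relative to WT, to 0.853 of the WT level, with a 95% interval of -0.36 to -0.10 (limma adjusted p = 0.0397). Changes as large or larger were found in 13.6% of all probes. In STZ minus Control it was -0.10 ± 0.073 (adjusted p = 0.761) and in Control minus WT -0.07 ± 0.067 (adjusted p = 0.474). The Ins2Akita call lay close to the threshold: it was lost with any one of 10 arrays left out (adjusted p up to 0.0798), namely WT arrays 1, 2, 3, 4 and 7 and Ins2Akita arrays 2, 4, 6, 7 and 8, with median scaling (-0.25, adjusted p = 0.0523) and with BeadChip as a random block (-0.23, adjusted p = 0.106).

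The second Tef probe (ILMN_2715400), which is annotated to a different Tef transcript and is much dimmer, did not follow the first. It ranged from 5.45 to 6.34 in Ins2Akita, 5.39 to 5.88 in STZ, 5.61 to 6.49 in Control and 5.64 to 6.51 in WT. The groups overlapped, with STZ lowest. Its change was -0.06 ± 0.14 in Ins2Akita minus WT (adjusted p = 0.868) and -0.27 ± 0.15 in STZ minus Control (adjusted p = 0.63).

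**Figure D2:**
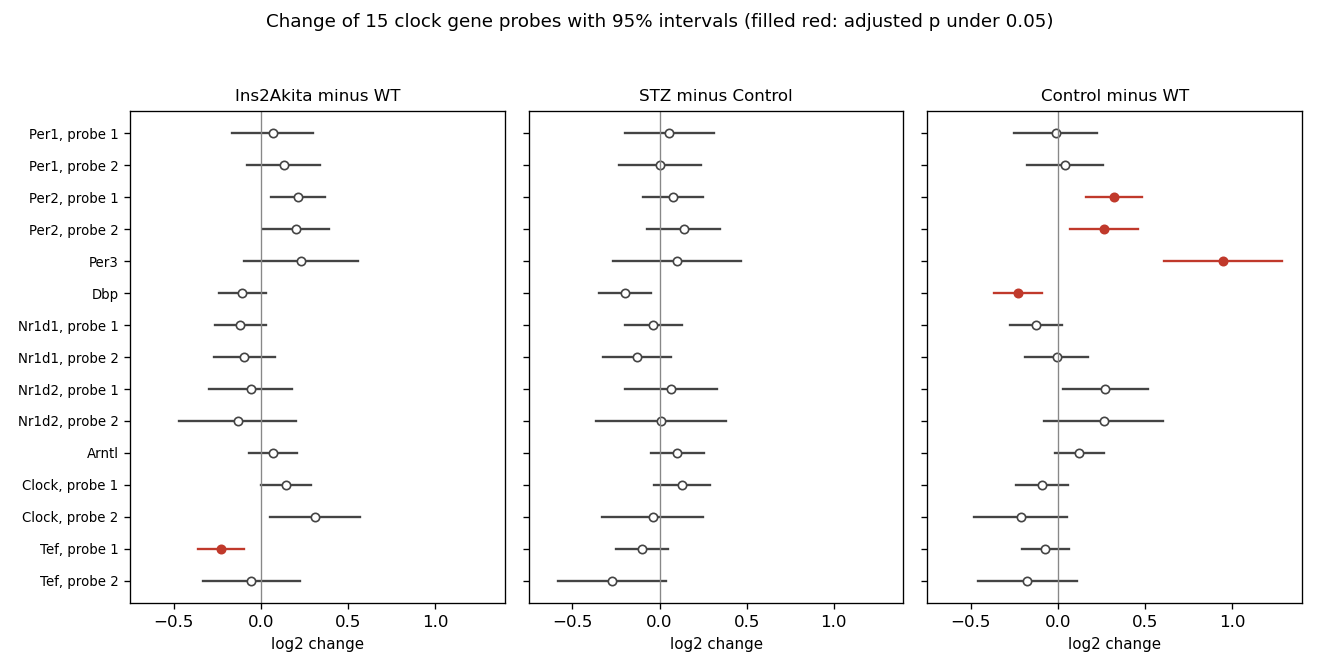
Log2 change of the 15 clock probes, with 95% intervals, in each comparison (probe 1 is the brighter of a gene). Filled red points passed the adjusted p: 1 Tef probe for Ins2Akita minus WT, 0 probes for STZ minus Control, and Per3, both Per2 probes and Dbp for Control minus WT.

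Whether the diabetes change differed between the models was tested as (Ins2Akita minus WT) minus (STZ minus Control). Of the 15 probes, 0 passed the adjusted p where 0.0179% of all probes did, and 0 had an unadjusted p under 0.05 where 8.65% of all probes did. The difference for the brighter Tef probe was -0.13 with a 95% interval of -0.33 to 0.07, so the fall in Ins2Akita is not shown to be absent in STZ. For Dbp it was 0.09 (-0.11 to 0.29), for Per3 0.13 (-0.37 to 0.62) and for the brighter Per2 probe 0.14 (-0.09 to 0.37). The largest difference was that of the dimmer Clock probe, at 0.35 (-0.04 to 0.74, unadjusted p = 0.0759, adjusted p = 0.647). The widest of the intervals named, that of Per3, leaves room for a difference of either direction of more than 0.3 on the log2 scale.

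Markers of tissue around the retina were set beside these results. Of 7 lens markers 0 passed in any comparison, and their median change was -1.81 in Ins2Akita minus WT, 1.49 in STZ minus Control and -1.05 in Control minus WT. Of 8 markers of pigment epithelium and melanocytes 0 passed, with a median change of 0.79 in Ins2Akita minus WT, 0.16 in STZ minus Control and 0.04 in Control minus WT. Pigment scores ranged from -0.90 to 1.89 in Ins2Akita, -0.45 to 1.42 in STZ, -1.60 to 1.37 in Control and -1.50 to 1.85 in WT. With the lens and pigment scores as covariates, Tef in Ins2Akita minus WT was -0.25 (adjusted p = 0.0455), and in Control minus WT Per3 was 0.93 (adjusted p = 0.000246), the brighter Per2 probe 0.31 (adjusted p = 0.00602) and Dbp -0.24 (adjusted p = 0.0139). The dimmer Per2 probe no longer passed in that fit (0.26, adjusted p = 0.0543). Of 4 blood markers, S100a8 (-1.02, adjusted p = 0.015) and S100a9 (-0.76, adjusted p = 0.034) were lower in Ins2Akita than in WT retina, and S100a8 was lower in Control than in WT (-0.83, adjusted p = 0.0166). All 4 were below 0 in Ins2Akita minus WT, while in Control minus WT 2 were above 0 and 2 below. S100a8 and S100a9 were dim, detected on 17 and 12 of the 31 arrays. The bright Hba-a1 (mean log2 level 11.44, detected on 31 arrays) was not called. Some markers of the retina's own cells were called too, where 4.16% of all probes passed in Ins2Akita minus WT and 22.2% in Control minus WT. In Ins2Akita minus WT the cone transducin Gnat2 (-0.35) and the bipolar cell gene Pcp2 (-0.27) were lower and Prkca (0.31) higher, with 0 of 5 rod and 0 of 4 Muller glia markers called. In Control minus WT Gnat1 (0.25), Prkca (0.26) and Rlbp1 (0.22) were higher and Gnat2 (-0.25), Pdc (-0.27) and Thy1 (-0.28) lower, which is 2 of 5 rod, 1 of 4 cone, 2 of 6 inner neuron and 1 of 4 Muller glia markers. With 4 to 6 markers for each of these cell types, the counts are not shown to differ from the share of all probes. The part of the blood and retinal markers in the Tef, Per3, Per2 and Dbp results was not tested.

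The members also differed in how much they varied among arrays of one group. The within-group SD was 0.35 for Per3, and 0.36 and 0.25 for the dimmer and brighter Nr1d2 probes, against a median of 0.20 over all kept probes. Those of Dbp (0.13), Arntl (0.13) and the brighter Tef probe (0.13) were lower, and 86.7% to 89.1% of all probes varied more than these 3. For Per3 most of the spread was in WT, where the SD was 0.56, and in Ins2Akita it was 0.16.

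For 6 genes a pair of probes was measured, and their deviations from the group mean were compared across the 31 arrays. They correlated closely for Per1 (r = 0.88, rho = 0.85, permutation p = 1e-05 for each, the smallest that the permutations can give), Nr1d2 (r = 0.87, rho = 0.85), Per2 (r = 0.72, rho = 0.66) and Nr1d1 (r = 0.68, rho = 0.66), each with an adjusted p of 0.00018 or less over the 6 pairs. For Clock r was 0.32 (rho = 0.22, permutation p = 0.139, adjusted p = 0.166), and for Tef it was 0.06 (rho = 0.11, permutation p = 0.731). Without the 2 arrays farthest from the median r was 0.81 for Per1, 0.88 for Nr1d2, 0.63 for Per2 and 0.74 for Nr1d1. Within groups the r for Clock was 0.01 in Ins2Akita, 0.85 in STZ, 0.34 in Control and 0.30 in WT.

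**Figure D3:**
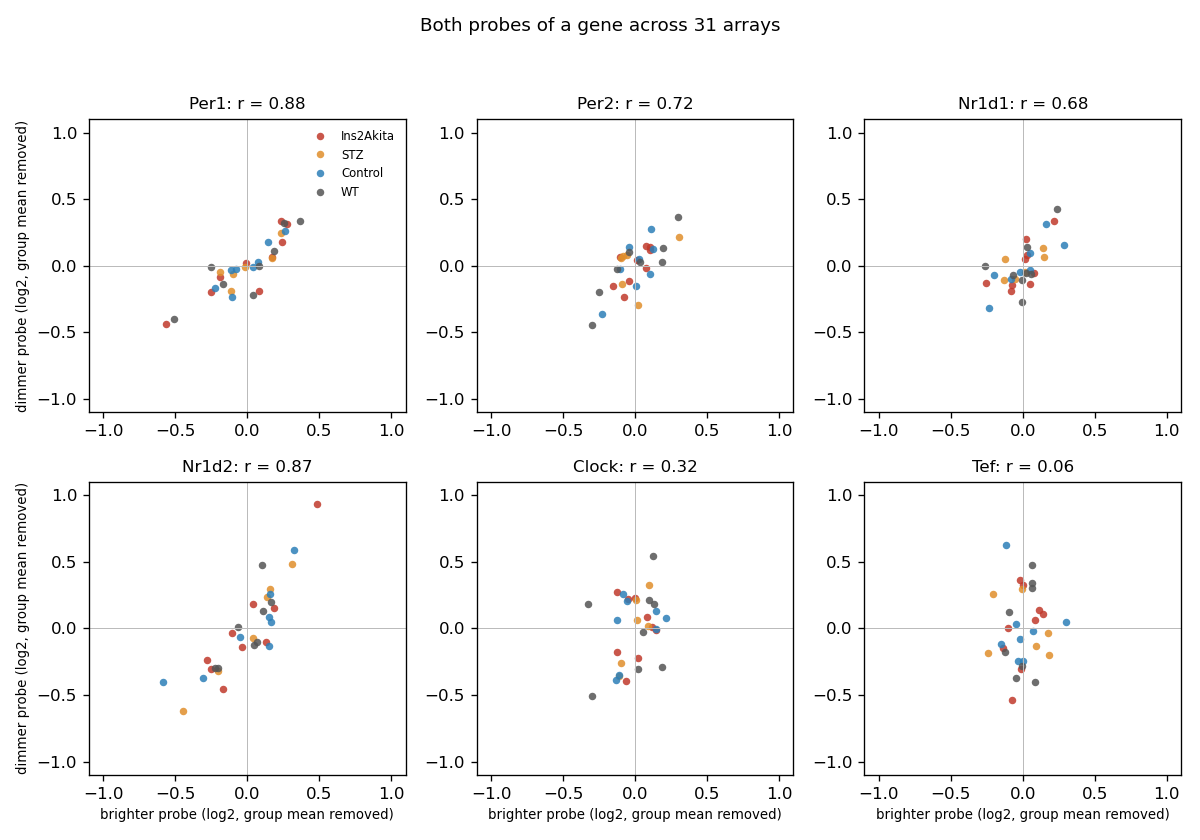
Deviation from the group mean (log2) of the dimmer against the brighter probe of 6 genes, 1 point an array, coloured by group. The points lie along a diagonal for Per1, Nr1d2, Per2 and Nr1d1 (r of 0.68 to 0.88) and scatter for Clock (0.32) and Tef (0.06).

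Co-variation among the 9 genes was examined in the same way, with group means removed, so that it shows arrays of one group that are high or low together. Of 36 pairs, 10 had an unadjusted permutation p under 0.05, and 0 passed after adjustment over the 36 pairs (lowest adjusted p 0.093). The highest values were those of Per3 with Clock (r = 0.54, rho = 0.46, permutation p = 0.0125 and 0.0169), Nr1d2 with Arntl (r = 0.54, rho = 0.49, permutation p = 0.00726 and 0.0148) and Per2 with Per3 (r = 0.53, rho = 0.55, permutation p = 0.0213 and 0.00627). Without the 2 arrays farthest from the median of the first gene these r were 0.37, 0.47 and 0.51. The lowest were Per3 with Nr1d1 (r = -0.45, rho = -0.42, permutation p = 0.0111 and 0.0237) and Nr1d1 with Nr1d2 (r = -0.44, rho = -0.59, permutation p = 0.0218 and 0.00143), with r of -0.43 and -0.56 without those 2 arrays.

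The sign of some pairs differed by group. Per3 with Dbp had r = 0.52 over the 31 arrays (rho = 0.43, permutation p = 0.0129 and 0.0341), which was made of -0.52 in Ins2Akita, 0.78 in STZ, -0.45 in Control and 0.95 in WT. Nr1d2 with Arntl, by contrast, was positive in each group (0.61 in Ins2Akita, 0.31 in STZ, 0.61 in Control and 0.51 in WT). These groups hold 6 to 9 arrays, and differences between their correlations were not tested. In WT, arrays WT5, WT6 and WT8 were below the group mean for both Per3 and Dbp. WT6 and WT5 also had the fewest probes detected of the 31 arrays (14581 and 14936). The part of this in the WT correlation of Per3 with Dbp was not tested.

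**Figure D4:**
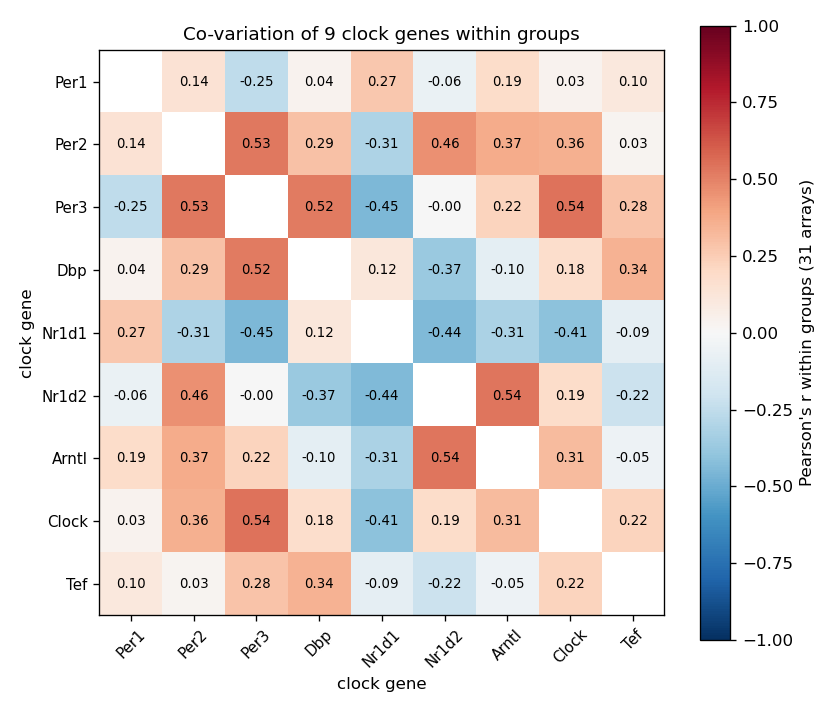
Pearson's r between the brightest probes of 9 clock genes over 31 arrays with group means removed, blue below 0 and red above. Per3 with Clock (0.54), Nr1d2 with Arntl (0.54) and Per2 with Per3 (0.53) are the highest of the 36 pairs and Per3 with Nr1d1 (-0.45) is the lowest.

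For each member the 2 non-member genes with the highest r across arrays, group means removed, were found among 11163 genes. This is a description only, since the genes were picked as the highest of so many. The closest was the pair for Nr1d2, the zinc finger RNA-binding gene Zfr (r = 0.90) and the RNA-binding gene Hnrnpll (r = 0.90). For Per3 they were the RNA helicase gene Ddx5 (r = 0.87) and Hnrnpk (r = 0.86), a gene of an RNA-binding protein. Nr1d1 varied most like Drd4 (r = 0.82), the dopamine receptor gene of photoreceptors, and Macrod1 (r = 0.78). The others were Prdm8 (0.75) and Pias3 (0.74) for Per1, Pias1 (0.72) and Slit2 (0.71) for Per2, Samd14 (0.71) and Vstm2l (0.70) for Dbp, Sec24b (0.71) and Hpgd (0.69) for Arntl, Tcf12 (0.74) and Vsnl1 (0.73) for Clock, and Adcy2 (0.76) and Sbk1 (0.73) for Tef. In single groups the r of Prdm8 with Per1 ran from -0.03 to 0.94, and that of Pias3 from 0.64 to 0.88.

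For Per3 the likeness within groups did not carry over to the difference between Control and WT. Hnrnpk fell by 0.67 in Control relative to WT (limma adjusted p = 0.0104), and Ddx5 was at -0.70 (adjusted p = 0.0742), where Per3 rose by 0.95. Zfr was at 0.13 (adjusted p = 0.486) and Hnrnpll at 0.25 (adjusted p = 0.0866), beside 0.27 for Nr1d2.

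The rest of the clock machinery was described with a list of 18 further genes, of which 11 had a probe that passed the filter. By the brightest probe of each gene, 0 of 11 passed in limma in Ins2Akita minus WT (1 with an unadjusted p under 0.05) and 0 in STZ minus Control (0 with such a p). In Control minus WT 1 of 11 was higher and 1 lower, where 22.2% of all probes passed. The gene that was lower was Rora, an activator that competes with the REV-ERB receptors at RORE sites. Its levels were 11.55, 11.65 and 11.76 (lowest, median, highest) in Ins2Akita, 11.10, 11.22 and 11.32 in STZ, 11.16, 11.27 and 11.38 in Control, and 11.36, 11.57 and 11.69 in WT. STZ and Control were low, and Control met WT only at its edge. Rora fell by 0.29 ± 0.050 in Control relative to WT (limma adjusted p = 9.05e-05), while its other probe, near background, was at -0.04 (adjusted p = 0.807). Timeless, a replication fork protein whose place in the mammalian clock is debated, rose by 0.19 ± 0.070 (adjusted p = 0.0491). Among the rest, Cry2, the other cryptochrome, gave 0.03 in Ins2Akita minus WT, 0.08 in STZ minus Control and -0.05 in Control minus WT, none of which passed. Npas2, Arntl2, Bhlhe41, Fbxl21 and Fbxw11 had probes that were not above background by the filter.

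A dimmer probe of Ciart, a repressor of CLOCK and ARNTL, passed where the brighter one did not. On that dimmer probe (ILMN_3102736) levels ran from 7.69 to 8.16 in Ins2Akita, 6.99 to 7.57 in STZ, 7.00 to 7.72 in Control and 7.39 to 7.81 in WT. Ins2Akita was the highest group and overlapped with WT. It rose by 0.34 ± 0.092 in Ins2Akita relative to WT (adjusted p = 0.0289) and fell by 0.26 ± 0.095 in Control relative to WT (adjusted p = 0.0471). The brighter Ciart probe gave 0.15 ± 0.089 (adjusted p = 0.367) and -0.09 ± 0.091 (adjusted p = 0.513) in the same comparisons. The signs were the same on both probes, and the difference between them was not tested. Btrc, a ubiquitin ligase subunit that targets PER proteins, likewise passed on a dimmer probe and not on its brightest. Its dimmest probe gave -0.31 ± 0.082 in Control minus WT (adjusted p = 0.00698), against -0.14 ± 0.072 on its brightest probe (adjusted p = 0.163).

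Among 14 listed outputs of the clock, 10 were measured. Coq10b, a gene of coenzyme Q biology, was the 1 gene that passed in Ins2Akita minus WT. On its brightest probe the levels were 8.52, 8.61 and 8.76 (lowest, median, highest) in Ins2Akita, 8.36, 8.41 and 8.53 in STZ, 8.24, 8.46 and 8.83 in Control, and 8.59, 8.93 and 9.09 in WT. WT was high and the others overlapped with its lower end or lay below it. Coq10b fell by 0.28 ± 0.075 in Ins2Akita relative to WT (adjusted p = 0.0281) and fell by 0.44 ± 0.077 in Control relative to WT (adjusted p = 0.000134). The other Coq10b probes were at 0.09 and 0.10 in Ins2Akita minus WT, so the probes disagreed in sign there, while in Control minus WT they fell by 0.37 and 0.63. Pfkfb3, which sets the level of a glycolytic activator, rose by 0.44 ± 0.11 in Control relative to WT (adjusted p = 0.00298), with a dim signal detected on 8 of 8 Control and 4 of 8 WT arrays. These were 2 of 10 genes in Control minus WT, where 22.2% of all probes passed. The dimmer probe of Noct, the deadenylase nocturnin, gave 0.33 ± 0.091 in Control minus WT (adjusted p = 0.00798), while its brighter probe gave 0.07 ± 0.057 (adjusted p = 0.436). In STZ minus Control 0 of 10 passed, and 3 had an unadjusted p under 0.05.

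The list of genes of the retinal clock and its light and dopamine input held 15 genes, with 9 measured. Adcy1, the adenylyl cyclase whose rhythm in photoreceptors is driven by the clock, fell by 0.31 ± 0.075 in Ins2Akita relative to WT (adjusted p = 0.0163). Its levels were 9.58, 9.79 and 10.07 (lowest, median, highest) in Ins2Akita and 9.96, 10.11 and 10.22 in WT, with most Ins2Akita arrays below the WT range. In STZ minus Control it stood at 0.000248 (adjusted p = 1), and the difference between the models was -0.31 ± 0.11 (adjusted p = 0.379). In Control minus WT 3 of 9 genes passed, where 22.2% of all probes did, and all were higher: Vip, a neuropeptide of amacrine cells (0.56 ± 0.11, adjusted p = 0.000311), Th, the rate-limiting enzyme of dopamine synthesis (0.33 ± 0.11, adjusted p = 0.0296), and the dopamine receptor Drd1 (0.28 ± 0.088, adjusted p = 0.021). Th was close to background, detected on 6 of 8 Control arrays and 1 of 8 WT arrays. In STZ minus Control 0 of 9 passed and 0 had an unadjusted p under 0.05.

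Of 13 immediate early and light-induced genes, 9 were measured. Egr1, an immediate early transcription factor induced by light in the retina, had levels of 9.20, 10.38 and 11.72 (lowest, median, highest) in Ins2Akita, 10.33, 11.04 and 11.77 in STZ, 9.44, 10.80 and 11.59 in Control, and 10.56, 12.21 and 14.00 in WT. The WT arrays were the highest and the most spread, with an SD of 1.51, and overlapped with every other group. Egr1 fell by 1.78 ± 0.45 in Ins2Akita relative to WT (adjusted p = 0.0202) and fell by 1.68 ± 0.46 in Control relative to WT (adjusted p = 0.00921). Junb, another immediate early gene, fell by 0.44 ± 0.13 and Btg2 rose by 0.40 ± 0.12 in Control relative to WT (adjusted p = 0.0149 and 0.014). These were 3 of 9 genes in Control minus WT, where 22.2% of all probes passed. In STZ minus Control 0 of 9 passed, and 1 had an unadjusted p under 0.05. Of 10 measured genes that glucocorticoids induce, 0 passed in any of the 3 comparisons (3, 2 and 2 with an unadjusted p under 0.05), with median changes of 0.10 in Ins2Akita minus WT, 0.10 in STZ minus Control and -0.07 in Control minus WT. Whether light exposure or hour of sampling differed between the groups was not tested, since no label gives either.

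**Figure D5:**
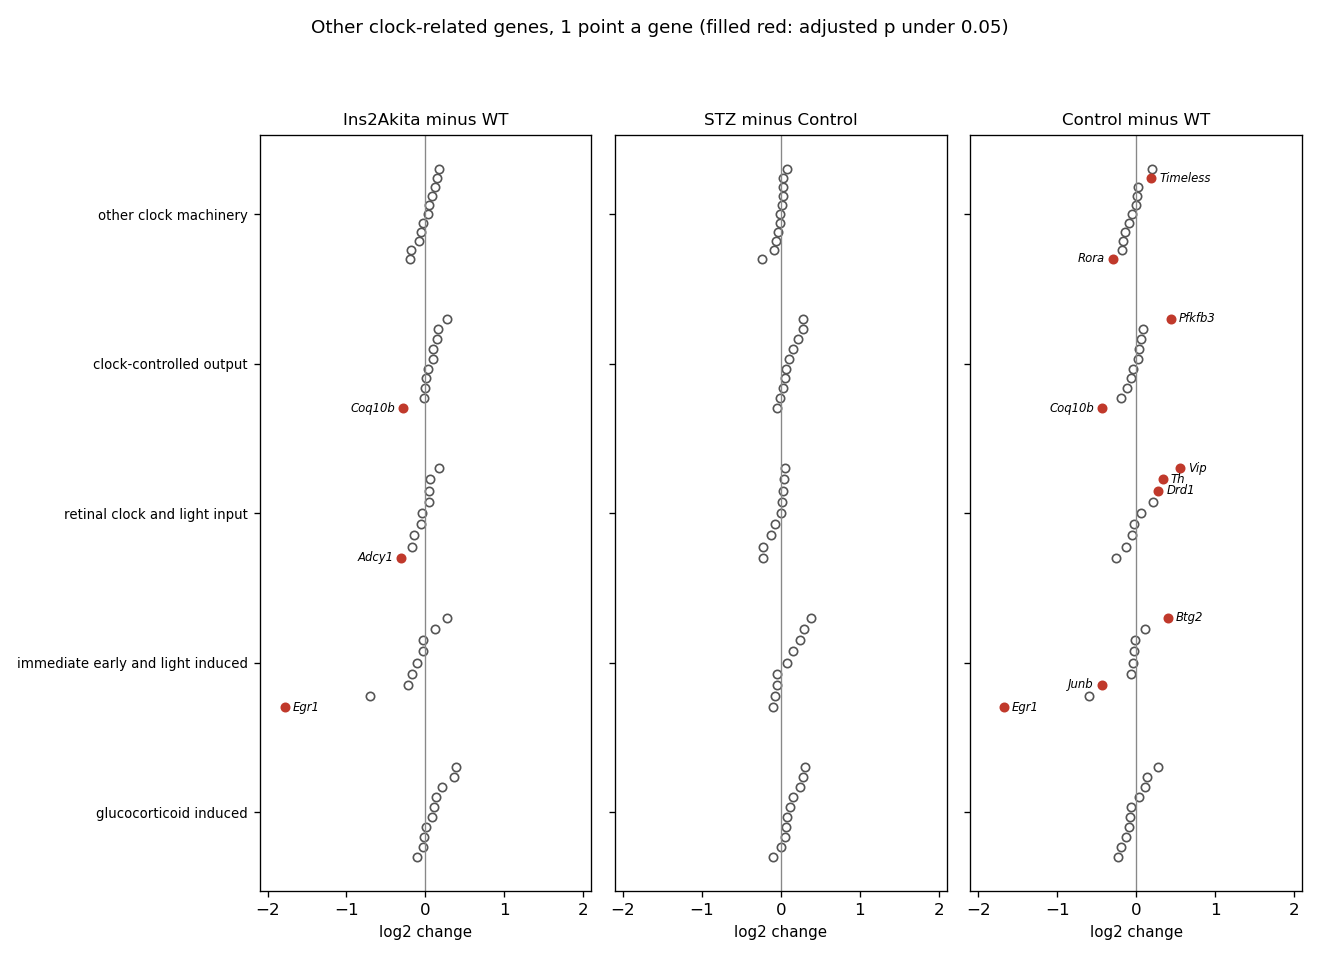
Log2 change of the genes of 5 further clock-related lists (brightest probe, 1 point a gene) in each comparison. Filled red points passed the adjusted p, 3 genes for Ins2Akita minus WT (Coq10b, Adcy1 and Egr1), 0 for STZ minus Control and 10 for Control minus WT. Of the 47 genes that is 6.38% for Ins2Akita minus WT and 21.3% for Control minus WT, where 4.16% and 22.2% of all probes passed.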

How the data were processed

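Total RNA of whole mouse retina was labelled and hybridised to single-colour Illumina BeadChips. The authors deposited probe intensity values which, from the values themselves, were background-subtracted and scaled to a mean of 351.836 on every array, with detection p-values from BeadStudio per the submitters' processing notes (version not given in the sources used here). A deposited series matrix held the same intensities without background subtraction (mean 403.64). Such scaling hides differences in total signal.

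Here neqc of limma 3.58.1 (R 4.3.3, package data.table, version 1.17.8) gave, at an offset of 16, log2 intensities, which understate changes of dim probes. Probes with a detection p under 0.05 on at least 6 arrays were kept, 16743 of 25697. The number of arrays, and signal over background for dim probes, limits the precision. One model of 4 group means (lmFit, eBayes) gave the contrasts. P-values were two-sided with Benjamini-Hochberg adjustment over all kept probes, and the fit was checked on simulated data. Correlations used group residuals and 100000 permutations within groups, two-sided.

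All member probes were named. Of the other lists every gene called on its brightest probe was named, up to 5 a list. Probes whose calls differed from the brightest probe's (Ciart, Noct, Btrc and the other Coq10b and Rora probes) were added after their values were seen. For likeness the 2 genes with the highest r were named. Members and lists were chosen with earlier results of these data known. Promoter windows came from RefSeq, build GRCm38.p6, used for names and these windows only. Alternatives were the series matrix, median scaling, an offset of 50, other filters, fits of the compared groups alone, BeadChip and replicate blocks, marker scores, mean of probes, each array left out and, chosen after seeing the data, array weights. Replicate numbers were not taken as pairing the arrays. The labels tie them to no shared animal, and 14 of 42 same-number pairs, not all, correlated above 0.1. Same-numbered arrays did share the position letter that follows the BeadChip number in the deposited column names. The replicate block is thus also a block of BeadChip position. Plots were made in Python 3.11.15 (matplotlib 3.10.9).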

Additional observations from a re-analysis of the deposited data

Results flagged for a closer look

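In 3 of 60 sets of a clock probe in a group, 1 array stood far from the others by Dixon's ratio (its gap to the nearest array over the group's range). Chance flags about 1 in 20 such sets, so this number is no more than chance gives. On the dimmer Nr1d2 probe (ILMN_2602387) array Ins2Akita9 had a level of 9.31, against 8.56 for the next array (ratio 0.543). It is the array that shares a BeadChip with the STZ arrays. On the dimmer Tef probe (ILMN_2715400) array Control1 stood at 6.49, with the next at 5.91 (ratio 0.661). On the brighter Per2 probe (ILMN_2987862) array STZ4 stood at 9.88, with the next at 9.59 (ratio 0.714). Without STZ4 or any other single array, 0 clock probes passed in STZ minus Control.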

How the results depend on the processing

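The count of clock probes called in Ins2Akita minus WT was 1 in the fit reported and 0 with median scaling and with BeadChip as a random block, and it ranged from 0 to 1 with each array left out. In Control minus WT it was 4, and 3 with median scaling, with the compared groups alone, with the BeadChip block, with the replicate block, with marker scores and with array weights, and 3 to 5 with each array left out. The dimmer Per2 probe was the one lost in these 6 fits (adjusted p 0.0543 to 0.141), and it was also lost with no filter (adjusted p = 0.0554), where a further Per2 probe not above background was called lower (-0.25, adjusted p = 0.0243). In Control minus WT, Per3 (0.81 to 1.06), the brighter Per2 probe (0.25 to 0.36) and Dbp (-0.33 to -0.21) passed under every alternative run and with each array left out, with adjusted p of at most 0.00293, 0.0231 and 0.0365. The BeadChip block cannot separate BeadChip from group in Control minus WT, since either group lay wholly on a BeadChip of its own. No fit run here could remove a BeadChip effect from that comparison. The same holds for Ins2Akita minus WT and STZ minus Control, where the compared groups shared no BeadChip. In STZ minus Control and for the difference between the models the count was 0 in every fit run. The difference has no value in the fit of the compared groups alone. The count of clock-controlled outputs called in Ins2Akita minus WT was 1, and 0 where a gene's kept probes were averaged, and in Control minus WT it was 2 and then 3, with Noct added (0.20, adjusted p = 0.0176). Of 525 changes recomputed under alternatives other than array weights 8 calls were lost and 11 uncalled changes turned sign, and of 1860 with an array left out 21 calls were lost, 1 was gained and 59 uncalled changes turned sign. No called change reversed. Over all probes, Ins2Akita minus WT had 696 calls, 448 with the compared groups alone and 228 with the BeadChip block, and STZ minus Control had 6, with 0 to 24 under the alternatives that keep all arrays of the comparison. Median scaling moved the split in Ins2Akita minus WT from 295 higher and 401 lower to 146 and 374, and in Control minus WT from 1902 and 1821 to 1166 and 2524. Same-numbered arrays, which share a BeadChip position letter, had correlations of -0.26 to 0.48. Their median was -0.035, against -0.028 for arrays of different groups and numbers. Of 31 arrays, 11 correlated best with their own number among the arrays of other groups. The part of BeadChip position in this was not tested. With the replicate block, calls over all probes numbered 848, 17, 3889 and 3 in the 4 contrasts, and member counts were 1, 0, 3 and 0. Dim probes limit what can be said of Cry1, Th and Pfkfb3.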
